A study of Arabidopsis thaliana with 6 samples.

Results

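The description covers the nuclear genes whose transcript level set developing seeds of the Arabidopsis thaliana lines ar21 and i4g1, pooled, apart from wild-type (WT) seeds. A gene was taken in where all 4 mutant libraries lay above, or all 4 below, both WT libraries, among rows with a mean normalised count of at least 10 over the 6 libraries. By that rule 6721 of 15402 nuclear rows (15399 loci) were separated, or 43.6%. In 3525 of them (22.9% of the rows tested) the mutants were higher and in 3196 (20.8%) they were lower. With all libraries set to the same nuclear total the numbers were 3057 higher and 3655 lower, so which direction held more genes depended on the scaling.

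All 3 groups are seeds of strain Columbia-0 at 13 days after flowering (12 to 13 in the protocol text), with 2 biological replicates each: WT, the line ar21 and the line i4g1. They had the same chamber, with long days, no treatment, and each sample is a pool of seeds dissected from tagged siliques of primary shoots. The labels name no allele, transgene or batch. From knowledge of the study and not from the labels, i4g1 is taken to carry a mutation of eIFiso4G1, and ar21 to have a lesion in that gene too and to come from a study of seed oil. The labels do not say whether the replicate pools came from separate plants, so p-values measure the spread between these pools.

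As background, eIFiso4G1 is a scaffold protein of the plant-specific form of the complex that brings ribosomes to capped mRNA. Arabidopsis has a close paralog, eIFiso4G2, and a second form of the complex built on eIF4G. At the stage sampled, the embryo is green and fills with storage protein and oil, which draws on sucrose unloaded from the seed coat, on embryo photosynthesis and on a programme of abscisic acid signalling that ends in desiccation tolerance.

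Libraries held 3418773 (WT 2) to 8435759 (i4g1 2) reads, rRNA included, and the 2 mutant lines are compared with the same 2 WT libraries throughout. Outside the rRNA locus described next, depth was also lowest in WT 2 and highest in i4g1 2. The composition of the libraries moved with genotype. The nuclear 18S rRNA locus took 40.8% and 60.7% of the normalised total in WT, 30.0% and 19.8% in ar21, and 11.5% and 3.90% in i4g1. Of the rest, plastid loci took 2.33% and 3.09% in WT and 0.122% to 0.821% in the mutants, and mitochondrial loci took 4.64% and 5.73% in WT and 0.178% to 1.79% in the mutants. For each of the 3 shares the exact two-sided permutation test of 4 against 2 libraries gave p = 0.0667, the smallest p that 15 arrangements allow. Of 82 plastid rows, 72 were separated and all of these were lower in the mutants, with a median log2 difference of -1.89 over the 82. Of 25 mitochondrial rows, 24 were separated and lower, with a median of -2.40. The part of library composition in the nuclear results below was not tested, and in this design it cannot be told apart from genotype. In whole seeds, fewer cells of a type and less transcript per cell cannot be told apart either.

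The pooled comparison set the mean of the ar21 and i4g1 group means against the WT mean on log2(normalised count + 1), and a gene is said to have risen or fallen where its adjusted p (limma, over all rows tested) was under 0.05. Over all nuclear rows 2117 (13.7%) rose and 1552 (10.1%) fell. The shares given for gene lists below are to be read beside these 2 shares. Separated genes that also passed numbered 2058 higher (13.4%) and 1519 lower (9.86%). Separation and the test use the same values, so the size of this overlap is a description. Another 1467 separated genes with higher and 1677 with lower mutant values did not pass, and 59 rising and 33 falling genes passed without being separated. Without ar21 replicate 1 the counts of nuclear rows that rose and fell were 1280 and 864, and without ar21 replicate 2 the count that fell was 1015. On the reads recovered for the other 5 libraries, edgeR called 1187 and 984 and DESeq2 630 and 386. The genes named below by rule, apart from the eIFiso4G pair, were chosen as separated and called. Where all their mutant libraries are said to lie above or below WT, that choice fixes it.

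Most of the differences were modest in size. The median log2 difference was 0.72 in the genes separated and risen and -0.68 in those separated and fallen. A change of 2-fold or more was seen in 565 rising and 291 falling genes, and of 4-fold or more in 78 and 21. At the edge of the rule, AT5G62710 was just inside, with 25.6 and 22.4 in WT against a lowest mutant value of 25.6. AT5G23020 was just outside, with a highest WT value of 46.3 against a lowest mutant value of 46.3. On the lower side AT1G17350 was just inside, with a lowest WT and a highest mutant value of 46.3, and AT2G34680 just outside, with 366 for both. These pairs differ only beyond the digits printed. In 652 of the genes separated upward and 639 of those separated downward, the nearest mutant and WT libraries were under 1.05-fold apart.

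eIFiso4G1 (AT5G57870, chr5:23439498-23443815, + strand) was among the 12 largest falls. Its normalised counts were 368 and 454 in WT, 116 and 123 in ar21 and 24.5 and 45.6 in i4g1. Every mutant library lay below both WT libraries, and both i4g1 libraries lay below both ar21 libraries. The pooled log2 difference was -2.67 ± 0.21 (SE, adjusted p = 1.16e-05). The paralog eIFiso4G2 (AT2G24050, chr2:10225225-10228698, - strand) stood at 141 and 134 in WT, 201 and 231 in ar21 and 246 and 220.4 in i4g1, above WT in every mutant library, a rise of 0.70 ± 0.12 (SE, adjusted p = 0.00173). EIF4G, the scaffold of the other form, was at 1046 and 988 in WT, 1070.0 and 1150.0 in ar21 and 1033 and 1252 in i4g1, and its groups overlapped (log2 difference 0.14, adjusted p = 0.368).

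Of 15 tested genes for the cap-binding complex and poly(A)-binding proteins, 6 rose and 2 fell. These are 40% and 13.3% of them, against 13.7% and 10.1% of all nuclear rows, so the share that fell is near that over all rows. Among those that rose was EIF4A1, the main RNA helicase of the complex, at 962 and 955 in WT, 1691 and 1656 in ar21 and 1727 and 1498 in i4g1 (log2 difference 0.78, adjusted p = 0.000301). The rise was 0.53 in PAB4 and 0.41 in PAB8, both poly(A)-binding proteins (adjusted p = 0.00457 and 0.0124). AT1G72730, a helicase gene of the eIF4A family, rose by 0.86 (adjusted p = 0.0159), a call lost without WT 2, ar21 2 or i4g1 1 (adjusted p up to 0.137) and with edgeR or DESeq2. EIF4B1, which aids the helicase, fell, from 244 and 204 in WT, 182 and 157 in ar21 and 155 and 164 in i4g1 (log2 difference -0.44, adjusted p = 0.0262). The 6 rises were 4 without WT 2, ar21 1 or i4g1 1, and 3 with edgeR and 2 with DESeq2.

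Listed genes for cytosolic ribosomal proteins, the protein parts of the translating ribosome, moved together upward. The list was chosen with earlier results of these data known, and its shares do not describe the whole family. Of 41 tested, 36 rose (87.8%, against 13.7% of all nuclear rows) and none fell in limma, edgeR or DESeq2 or at an unadjusted p under 0.05, with a median log2 difference of 0.66 against 0.02 over all nuclear rows. The range over those that rose was 0.42 to 1.08. RPS6A (AT4G31700, chr4:15345979-15347804, - strand), a small-subunit protein phosphorylated in growth signalling, stood at 776 and 1042 in WT, 1869 and 1675 in ar21 and 2130.0 and 1955 in i4g1. RPS2C (AT2G41840, chr2:17459685-17461539, - strand), also of the small subunit, stood at 1259 and 1322 in WT, 2832 and 2596 in ar21 and 2964 and 2520.0 in i4g1. In both genes the lowest mutant library was above the highest WT library by a wide margin, and the pooled differences were 1.08 ± 0.13 (SE, adjusted p = 0.000144) and 1.08 ± 0.11 (SE, adjusted p = 5.95e-05). The 5 members that did not pass were RPL10B, RPL27AC, RPP0A, RPL38A and RPSAB, of which RPL10B and RPSAB were nonetheless separated. The count was 30 without WT 1, 32 with edgeR and 28 with DESeq2.

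Among 19 nucleolar genes of ribosome assembly, 8 rose (42.1%) and none fell by any of the 3 tools or at an unadjusted p under 0.05, with a median of 0.33. NOP58-1 (AT5G27120, chr5:9540861-9544065, + strand), a core protein of the small nucleolar particles that guide rRNA methylation, was at 69.5 and 78.4 in WT, 145 and 136 in ar21 and 176 and 169.7 in i4g1. NAP57 (AT3G57150, chr3:21153815-21156075, - strand), which makes pseudouridine in rRNA, was at 169 and 224 in WT, 366 and 354 in ar21 and 457 and 403 in i4g1. The pooled rises were 1.07 ± 0.13 (SE, adjusted p = 0.000217) and 1.01 ± 0.13 (SE, adjusted p = 0.000253), in genes chosen as separated. Leaving out WT 1 or ar21 1 left 4 rises, leaving out ar21 2 left 5, and DESeq2 gave 3. The highest-expressed nuclear gene that was separated and rose, AT5G60390, encodes a translation elongation factor 1-alpha and stood at 7386 and 7810.0 in WT, 13410 and 13080 in ar21 and 14730 and 13920 in i4g1 (log2 difference 0.86 ± 0.15 (SE, adjusted p = 0.00144)). Its transcript is nearly identical to that of AT1G07940, so reads may have been split between the copies. The rRNA shares given above fell in the same libraries in which these protein genes rose.

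**Figure D1:**
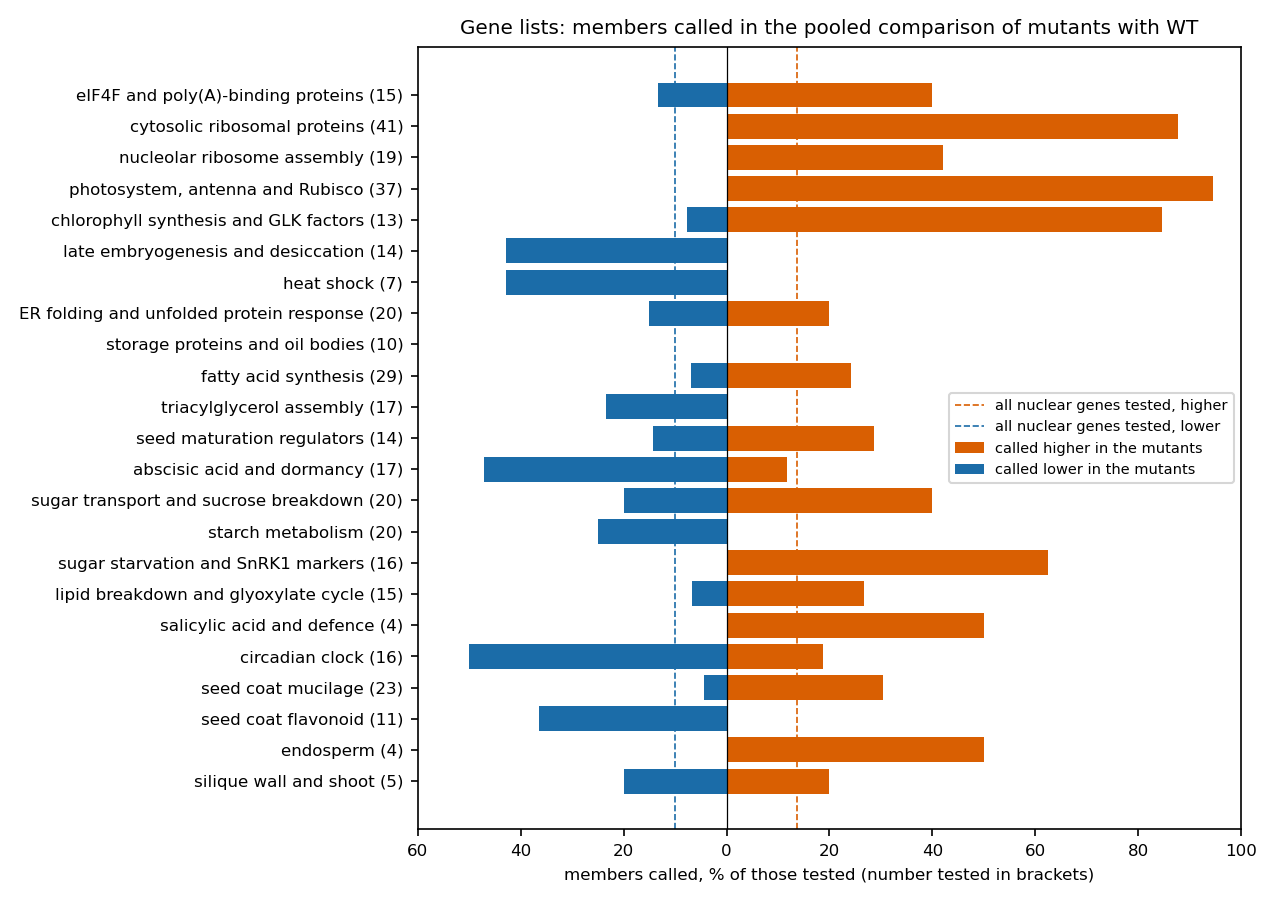
Share of the tested members of each gene list that rose (bars to the right) or fell (bars to the left) in the pooled comparison, in percent, with the number tested in brackets. Dashed lines mark the shares over all nuclear rows, 13.7% higher and 10.1% lower. Cytosolic ribosomal proteins (87.8%), photosystem genes (94.6%) and chlorophyll synthesis (84.6%) extend farthest to the right, and clock genes (50%) farthest to the left.

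Nuclear genes of photosynthesis, which supply the antenna, photosystem and Rubisco proteins to the plastid, rose in 35 of 37 tested (94.6%), and none fell in limma (unadjusted p included), edgeR or DESeq2. Their median log2 difference was 1.16, and the range over those that rose was 0.49 to 1.88. LHCB2.2 (AT2G05070, chr2:1799234-1800472, - strand), a light-harvesting protein of photosystem II, had 143 and 176 in WT, 673 and 514 in ar21 and 505 and 686 in i4g1. PSBO2 (AT3G50820, chr3:18890874-18892508, - strand), of the water-splitting complex, had 45.1 and 61.6 in WT, 219 and 169.8 in ar21 and 166 and 189 in i4g1. All mutant values of both genes exceeded all WT values more than 2-fold, with pooled differences of 1.88 ± 0.15 (SE, adjusted p = 1.42e-05) and 1.79 ± 0.17 (SE, adjusted p = 2.93e-05). RBCS1A (AT1G67090), the most abundant Rubisco small-subunit transcript here, was at 4800.0 and 5727 in WT, 9478 and 8678 in ar21 and 11860 and 11470 in i4g1, a log2 difference of 0.97 ± 0.14 (SE, adjusted p = 0.000525). LHB1B2 (AT2G34420), another antenna gene, was at 3462 and 3584 in WT, 8166 and 7379 in ar21 and 9793 and 7909 in i4g1, a log2 difference of 1.23 ± 0.14 (SE, adjusted p = 9.89e-05). LHCB2.2 and LHB1B2 each have a nearly identical neighbour copy, between which counting may have split reads. The members that did not pass were LHCB4.3 and RBCS1B. Plastid-encoded transcripts, as given above, were lower in the same mutant libraries.

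Chlorophyll synthesis followed the same direction, with 11 of 13 genes risen (84.6%), 1 fallen and a median of 0.82. PORB (AT4G27440, chr4:13725546-13727440, + strand), which reduces protochlorophyllide in the light, was at 97.5 and 134 in WT, 559.7 and 458 in ar21 and 426 and 627 in i4g1, a rise of 2.15 ± 0.17 (SE, adjusted p = 1.31e-05). HEMA1, the first committed step of tetrapyrrole synthesis, was at 172 and 199 in WT, 421 and 362 in ar21 and 339 and 404 in i4g1, a rise of 1.03 (adjusted p = 0.000163). The mutant libraries were all above WT in both genes. The 1 gene that fell encodes GLK2 (AT5G44190), which activates chloroplast genes together with GLK1. GLK2 counts were 51.2 and 92.4 in WT, 36.2 and 33.7 in ar21 and 34.1 and 29.5 in i4g1, a log2 difference of -1.03 ± 0.25 (SE, adjusted p = 0.0108), and it missed the threshold once WT 2 was left out (adjusted p = 0.121) and with DESeq2. GLK1 (AT2G20570) was at 12.2 and 8.40 in WT, 22.1 and 14.6 in ar21 and 20.1 and 43.4 in i4g1, and its adjusted p of 0.0487 did not hold in 5 of the 6 fits without 1 library (up to 0.197). Without WT 1 or ar21 2, 7 chlorophyll genes rose, and DESeq2 gave 6.

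Markers of sugar starvation, which the kinase SnRK1 raises when carbon is short, rose in 10 of 16 tested (62.5%), with none fallen in limma (unadjusted p included), edgeR or DESeq2 and a median of 0.85. DRM2 (AT2G33830, chr2:14308754-14310608, - strand), of the dormancy and auxin associated family, had 7.31 and 5.60 in WT, 100.5 and 87.1 in ar21 and 177 and 138 in i4g1, the second largest rise of all named genes. The WT mean of DRM2, 6.46, was under the filter of 10, so its row was tested only because of the mutant libraries. In WT 1 and WT 2, 1 read was worth 1.22 and 2.80 normalised counts. AT3G15450, a gene of an aluminium-induced family, had 213 and 140.0 in WT, 1405 and 974 in ar21 and 1376 and 1352 in i4g1. ASN1 (AT3G47340, chr3:17437840-17441431, - strand), which makes asparagine for nitrogen transport, had 2.44 and 0 in WT, 33.2 and 21.2 in ar21 and 14.9 and 13.9 in i4g1. ASN1 also passed the filter only through the mutant libraries, with a WT mean of 1.22. Every mutant library lay several-fold above both WT libraries in these genes. The pooled differences were 4.04 ± 0.21 (SE, adjusted p = 1.44e-06), 2.86 ± 0.17 (SE, adjusted p = 3e-06) and, for ASN1, 3.47 ± 0.55 (SE, adjusted p = 0.000878), which is not a bound on the true fold because WT 2 held no read. DIN10, a sugar-repressed gene of raffinose metabolism, was at 388 and 384 in WT, 1239 and 1230.0 in ar21 and 1265 and 1348 in i4g1, and BGAL4, a beta-galactosidase, at 91.4 and 58.8 in WT, 348 and 304 in ar21 and 352 and 358 in i4g1. The log2 differences were 1.72 and 2.197 (adjusted p = 2.33e-06 and 9.06e-06). The catalytic subunits of SnRK1 itself, KIN10 and KIN11, gave log2 differences of 0.13 and -0.07 (adjusted p = 0.493 and 0.721), with overlapping groups. DESeq2 called 6 of the list higher.

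Sugar transporters and sucrose-cleaving enzymes moved in both directions, with 8 of 20 risen (40%) and 4 fallen (20%). SWEET12, a sucrose exporter of the seed coat, was at 306 and 294 in WT, 694 and 695 in ar21 and 723 and 792 in i4g1, and SWEET15 (SAG29, AT5G13170), another, at 4214 and 4240.0 in WT, 6977 and 6525 in ar21 and 7343 and 6802 in i4g1. Both lay higher in all mutant libraries, by 1.27 (adjusted p = 1.16e-05) and 0.71 ± 0.12 (SE, adjusted p = 0.00166). The WT mean of SUC1 (AT1G71880), a sucrose-proton importer, was 3.84, under the filter, so its row was tested only because of the mutant libraries. Its counts were low, at 4.88 and 2.80 in WT, 23.1 and 26.4 in ar21 and 20.1 and 38.6 in i4g1. It rose by 2.53 ± 0.39 (SE, adjusted p = 0.000713). Opposite to these, GPT2 (AT1G61800, chr1:22824414-22826902, + strand), which carries glucose 6-phosphate into plastids, had 591 and 804 in WT, 173 and 102 in ar21 and 167 and 118 in i4g1 and fell by a log2 difference of -2.33 ± 0.21 (SE, adjusted p = 2.27e-05). SUS3, a sucrose synthase, was at 818 and 694 in WT, 377 and 368 in ar21 and 273 and 232 in i4g1, a fall of -1.30 (adjusted p = 2.16e-05), whereas SUS1 was at 212 and 157 in WT, 329 and 319.9 in ar21 and 352 and 440.4 in i4g1, a rise of 0.97 (adjusted p = 0.000531). Without WT 2 the count of falls was 2, which DESeq2 also gave. Among 20 genes of starch metabolism none rose in limma, edgeR or DESeq2 (1 at an unadjusted p under 0.05) and 5 fell (25%), with AMY3 (AT1G69830), a plastid alpha-amylase, at 457 and 423 in WT, 256 and 282 in ar21 and 242 and 259.5 in i4g1 (log2 difference -0.76 ± 0.11 (SE, adjusted p = 0.000483)). Starch falls numbered 3 without WT 1, WT 2 or ar21 1, 3 with edgeR and 2 with DESeq2.

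**Figure D2:**
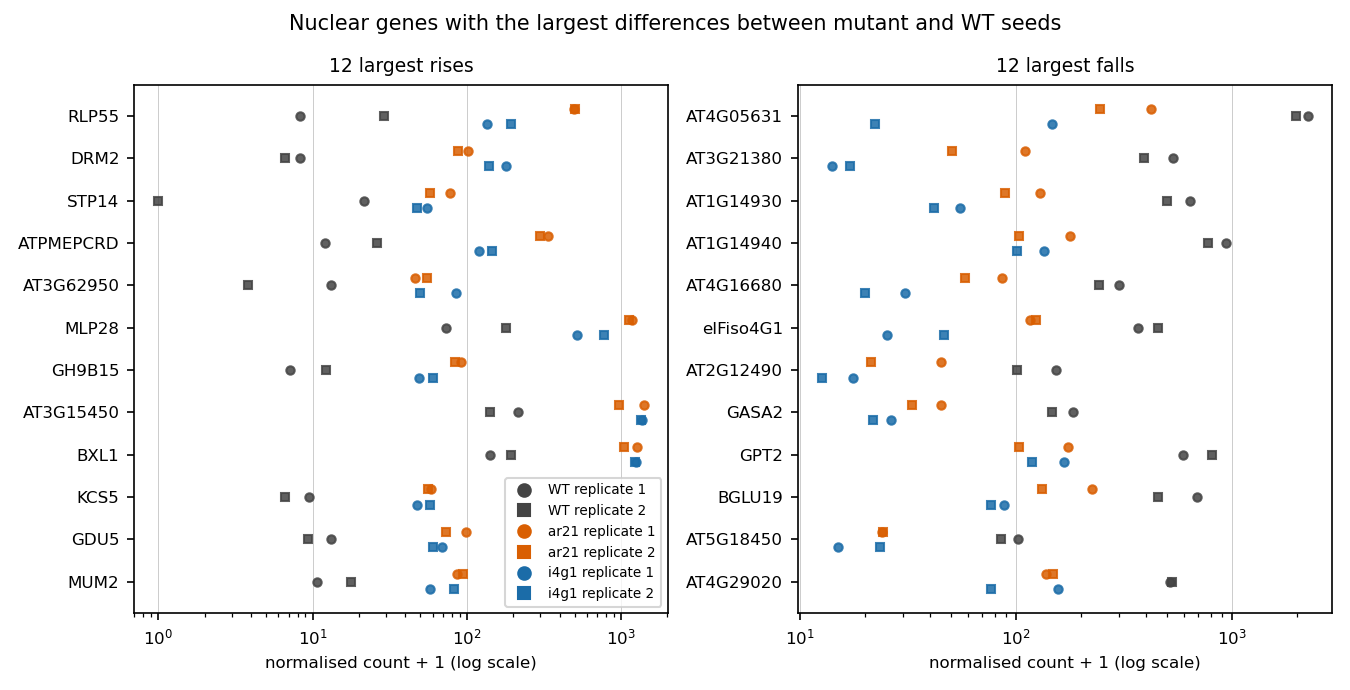
Normalised count + 1 on a log axis in each of the 6 libraries for the 12 largest rises and the 12 largest falls among nuclear genes that were separated, passed the test and had a mean of at least 50 in the higher of WT and the mutants. Colours mark the lines, and circles and squares mark replicates 1 and 2. WT and mutant points do not overlap in any of these genes, which the choice of genes fixes. In most of the 12 falls, eIFiso4G1 and AT3G21380 among them, the ar21 points lie between those of i4g1 and WT.

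The largest rise was in RLP55 (AT5G45770, chr5:18563333-18564921, + strand), which encodes a receptor-like protein, with 7.31 and 28.0 in WT, 492 and 502 in ar21 and 135 and 192 in i4g1 (log2 difference 4.19 ± 0.36 (SE, adjusted p = 1.8e-05)). ATPMEPCRD (AT2G43050), of the pectin methylesterase and inhibitor family, had 11.0 and 25.2 in WT, 336 and 296 in ar21 and 119.7 and 145 in i4g1, and BXL1 (AT5G49360, chr5:20011812-20016857, - strand), a beta-xylosidase that trims wall arabinans and xylans in the seed coat, had 140.2 and 193 in WT, 1265 and 1050.0 in ar21 and 1242 and 1236 in i4g1. Both stood several-fold above WT in all mutant libraries. For ATPMEPCRD the difference was 3.53 ± 0.25 (SE, adjusted p = 8.09e-06), and for BXL1 2.85 ± 0.13 (SE, adjusted p = 9.17e-07). MUM2 (AT5G63800, chr5:25530055-25535889, + strand), a beta-galactosidase needed for mucilage release, rose from lower counts, with 9.75 and 16.8 in WT, 85.4 and 93.0 in ar21 and 56.8 and 82.0 in i4g1 (log2 difference 2.51 ± 0.25 (SE, adjusted p = 4.89e-05)).

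MLP28 (AT1G70830), of the major latex protein family, had 71.9 and 179 in WT, 1185 and 1121 in ar21 and 520.0 and 779 in i4g1 and rose by 2.90 ± 0.27 (SE, adjusted p = 2.93e-05). STP14 (AT1G77210), of the sugar transporter family, was listed at 0 in WT 2 and had 20.7 in WT 1 against 46.4 to 77.4 in the mutants (adjusted p = 0.00765). Its log2 difference ran from 1.44 to 5.88 in fits without 1 library, and its call was lost without the intensity trend and with DESeq2 (adjusted p up to 0.529). KCS5 (AT1G25450), an enzyme that elongates very long chain fatty acids, was at 8.53 and 5.60 in WT, 57.3 and 54.9 in ar21 and 46.3 and 56.4 in i4g1, and GDU5 (AT5G24920), of a family named for glutamine export, at 12.2 and 8.40 in WT, 97.5 and 72.5 in ar21 and 68.2 and 59.5 in i4g1. Their log2 differences were 2.78 and 2.73 (adjusted p = 3.12e-05 and 1.93e-05). AT3G62950, of the thioredoxin superfamily, and GH9B15 (AT4G23560), a glycosyl hydrolase with a nearly identical copy at AT4G09740, completed the 12, with log2 differences of 3.02 and 2.90 (adjusted p = 0.000421 and 2.41e-05). The WT means of KCS5, AT3G62950 and GH9B15 were 7.07, 7.5 and 8.65, under the filter of 10. Their rows were thus tested only because of the mutant libraries.

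The largest fall was in AT4G05631, with 2242 and 1969 in WT, 423 and 245 in ar21 and 147 and 21.3 in i4g1 (log2 difference -3.95 ± 0.51 (SE, adjusted p = 0.000279)), a locus with no description in the annotation used. The range over the mutants was wide, with i4g1 2 at 21.3 and ar21 1 at 423, yet all were below both WT libraries. Among the 12 largest falls were 2 pairs of neighbouring genes. AT3G21380, a mannose-binding lectin gene, had 532 and 389 in WT, 109.5 and 49.8 in ar21 and 13.1 and 16.1 in i4g1, and the beta-glucosidase gene BGLU19 (AT3G21370), next to it on chromosome 3 and on the other strand, had 689 and 454 in WT, 224 and 132 in ar21 and 87.4 and 75.5 in i4g1. Log2 differences were -3.74 ± 0.27 (SE, adjusted p = 8.08e-06) and -2.23 ± 0.21 (SE, adjusted p = 2.93e-05). AT1G14930 and AT1G14940, adjacent genes of the polyketide cyclase and lipid transport superfamily on chromosome 1, had 639 and 501 in WT, 129 and 88.6 in ar21 and 54.2 and 40.8 in i4g1, and 937 and 770.1 in WT, 177 and 102 in ar21 and 134 and 101 in i4g1. They fell by log2 differences of -2.98 ± 0.18 (SE, adjusted p = 3.11e-06) and -2.75 ± 0.20 (SE, adjusted p = 8.08e-06). GASA2 (AT4G09610), of a family of gibberellin-regulated small peptides, AT5G18450, of the integrase-type DNA-binding superfamily, and AT4G29020, which encodes a glycine-rich protein, gave -2.43, -2.13 and -2.06 (adjusted p = 1.85e-05, 0.000145 and 6.08e-05). Also among them were AT4G16680, annotated as a nucleoside triphosphate hydrolase (-2.68, adjusted p = 1.42e-05), and AT2G12490, a transposable element gene with a nearly identical copy (-2.53, adjusted p = 0.000189). The annotation places another gene model across part of 16 of the 79 genes named by rule, among them eIFiso4G1, AT4G16680, BGLU19, AT3G15450, ASN1, PORB and LNK2, and since the library kit does not mark strand, reads from such stretches cannot be told apart.

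The listed genes of late seed maturation that passed the test lay lower in the mutants. Of 14 tested genes for late embryogenesis abundant proteins, which protect cells in drying, 6 fell (42.9%) and none rose in limma, edgeR or DESeq2 (1 at an unadjusted p under 0.05), with a median of -0.29. LEA7 was separated upward without passing (log2 difference 0.23, adjusted p = 0.132). LEA4-5 (AT5G06760, chr5:2089445-2090430, - strand) had 244 and 311 in WT, 106 and 123 in ar21 and 108 and 108 in i4g1, and EM1 had 1352 and 1137 in WT, 569.7 and 652 in ar21 and 745 and 507 in i4g1. All mutant libraries stood below WT in both. The differences were -1.30 ± 0.14 (SE, adjusted p = 8.29e-05) for LEA4-5 and -1.02 (adjusted p = 0.000503) for EM1. RAB28 (AT1G03120) fell by a log2 difference of -1.202 ± 0.35 (SE, adjusted p = 0.0272), a call lost without WT 1, ar21 2 or i4g1 2 (adjusted p up to 0.142) and with DESeq2. The list's falls numbered 3 without WT 1 and 3 with DESeq2. Of 7 tested heat shock genes 3 fell (42.9%, and 5 at an unadjusted p under 0.05) and none rose by any of these counts, led by the chaperone gene HSP70 (AT3G12580, chr3:3991117-3993886, - strand) with 1142 and 1297 in WT, 420.0 and 515 in ar21 and 509 and 439.6 in i4g1 (log2 difference -1.37 ± 0.12 (SE, adjusted p = 1.93e-05)). HSP101, a disaggregase, was at 596 and 498 in WT, 309.5 and 362 in ar21 and 317 and 348 in i4g1, also lower in every mutant library (log2 difference -0.71, adjusted p = 0.00129).

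Abscisic acid and dormancy genes fell in 8 of 17 tested (47.1%, against 10.1% of all nuclear rows) and rose in 2, with a median of -0.49. DOG1, the main dormancy gene of the species, was at 589 and 490.0 in WT, 314 and 318 in ar21 and 378 and 303 in i4g1, below WT in all mutant libraries (log2 difference -0.71, adjusted p = 0.00156). HAI2 (AT1G07430) and ABI2 (AT5G57050), phosphatases that restrain the hormone's signal, had 54.9 and 56.0 in WT, 21.1 and 16.1 in ar21 and 21.0 and 14.8 in i4g1, and 123 and 126 in WT, 63.3 and 79.0 in ar21 and 69.9 and 73.8 in i4g1. They fell by -1.57 ± 0.27 (SE, adjusted p = 0.00144) and -0.80 ± 0.16 (SE, adjusted p = 0.00337) on the log2 scale. Of the synthesis genes, ABA1, ABA3 and AAO3 fell (-0.63, -0.66 and -0.60, adjusted p = 0.00468, 0.0216 and 0.0153), while NCED6, an endosperm form of the rate-limiting enzyme, rose (0.74, adjusted p = 0.00125). The other rise, SNRK2.3 (AT5G66880), a kinase of the pathway, was lost without WT 2, ar21 1, ar21 2 or i4g1 2 (adjusted p up to 0.0915). DESeq2 called 2 of the list lower.

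The storage protein and oil body genes gave no call in limma or edgeR among the 10 of 16 members tested, with a median of -0.28, and 4 were lower and none higher at an unadjusted p under 0.05. The members not tested were AT4G28520, AT4G27140, AT4G27150, AT4G27160, AT4G27170 and AT3G27660, and 13 of the 16 had a row at all. The lack of calls thus covers only the 10 tested and not storage genes at large. Cruciferin 2 (CRU2) was at 61880 and 52550 in WT, 45770 and 55220 in ar21 and 60630 and 45670 in i4g1, and oleosin 1 (OLEO1) at 97900 and 93840 in WT, 74520 and 79750 in ar21 and 131100 and 88890 in i4g1. The CRU2 groups overlapped without a mutant library above the higher WT library, and OLEO1 had mutant libraries on both sides of WT. Limma called 4 of them lower without i4g1 1 or with all libraries set to the same nuclear total, and DESeq2 called 2 lower. Other abundant seed genes fell. FAD3 (AT2G29980), which makes the third double bond of linolenic acid, was at 6897 and 6494 in WT, 3928 and 4043 in ar21 and 4680.0 and 3443 in i4g1 (log2 difference -0.74 ± 0.14 (SE, adjusted p = 0.00264)). AT1G47540, of the knottin family, had 16790 and 15480 in WT, 10240 and 10180 in ar21 and 9769 and 7378 in i4g1 and fell by -0.79 ± 0.16 (SE, adjusted p = 0.00434) on the log2 scale, with adjusted p = 0.0565 without WT 1. AT1G04560, of the AWPM-19 family, fell by -0.64 (adjusted p = 0.00814, and up to 0.0896 without WT 1 or ar21 1), and the oil body gene AT1G05510 by -0.72 (adjusted p = 0.00637, and 0.0854 without WT 1). The vacuolar aquaporin TIP3;1 (AT1G73190) gave -0.47 (adjusted p = 0.0273), which was lost without either WT or either ar21 library (up to 0.166).

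Fatty acid synthesis held 7 rises and 2 falls among 29 genes (24.1% and 6.9%, against 13.7% and 10.1% of all nuclear rows), the falls being 0 without WT 2, ar21 1 or ar21 2. The rises numbered 0 without WT 1 or with DESeq2, 1 without ar21 1, without ar21 2 or with edgeR, and 4 without WT 2. BCCP1 (AT5G16390), a subunit of acetyl-CoA carboxylase, was at 232 and 311 in WT, 422 and 408 in ar21 and 372 and 401 in i4g1 (log2 difference 0.58 ± 0.13 (SE, adjusted p = 0.00646)), with adjusted p = 0.0672 without WT 1. Of 17 genes for triacylglycerol assembly 4 fell (23.5%), namely FAD3, PAH1, PAH2 and ROD1, and none rose in limma, edgeR or DESeq2 (1 at an unadjusted p under 0.05). PAH1 (AT3G09560), a phosphatidate phosphatase, was at 601 and 496 in WT, 318 and 331 in ar21 and 289 and 289.9 in i4g1, lower in all mutant libraries (log2 difference -0.83 ± 0.11 (SE, adjusted p = 0.00033)). The falls numbered 2 without WT 2, ar21 1 or ar21 2 and with DESeq2. In 15 genes of lipid breakdown 4 rose and 1 fell (26.7% and 6.67%), with malate synthase (MLS, AT5G03860), of the glyoxylate cycle, at 251 and 272 in WT, 556 and 561 in ar21 and 450.1 and 397 in i4g1 (log2 difference 0.89 ± 0.11 (SE, adjusted p = 0.000152)). The count of these rises was 1 without WT 2 and 2 without ar21 1 or ar21 2.

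Among 14 master regulators of maturation 4 rose and 2 fell (28.6% and 14.3%, against 13.7% and 10.1% of all nuclear rows). BZIP67 (DPBF2, AT3G44460), known as an activator of FAD3 in Arabidopsis seeds, was at 768 and 890.5 in WT, 391 and 415 in ar21 and 483 and 412 in i4g1 (log2 difference -0.96 ± 0.11 (SE, adjusted p = 0.000131)). LEC1 (AT1G21970), an early regulator of embryo identity, was at 12.2 and 11.2 in WT, 26.1 and 30.7 in ar21 and 28.8 and 20.8 in i4g1, and its rise of 1.11 ± 0.29 (SE, adjusted p = 0.0166) was lost without ar21 1, ar21 2 or i4g1 1 (adjusted p up to 0.0741). ABI3 and FUS3, central activators of storage genes, were within overlapping ranges, with log2 differences of 0.10 and -0.15 (adjusted p = 0.558 and 0.383). Rises numbered 2 without ar21 1 or i4g1 1 and 1 without ar21 2. In the list for protein folding in the endoplasmic reticulum 4 of 20 rose and 3 fell, and these shares of 20% and 15% are near those over all nuclear rows (13.7% and 10.1%). Its largest change was in ERDJ3A (AT3G08970), a co-chaperone, at 213 and 182 in WT, 74.3 and 84.2 in ar21 and 105 and 107 in i4g1 (log2 difference -1.10 ± 0.14 (SE, adjusted p = 0.000244)), and P58IPK (AT5G03160), another, was at 456 and 431 in WT, 268 and 304 in ar21 and 244 and 256 in i4g1 (log2 difference -0.73 ± 0.11 (SE, adjusted p = 0.000602)).

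Of 16 circadian clock genes 8 fell (50%) and 3 rose (18.8%), with a median of -0.39. The genes that fell are mostly those known to peak in the morning. PRR9 (AT2G46790, chr2:19232607-19235179, + strand), a morning repressor, had 52.4 and 53.2 in WT, 9.04 and 19.8 in ar21 and 7.87 and 16.5 in i4g1, and LNK2 (AT3G54500, chr3:20175370-20179070, - strand), a coactivator that acts with RVE8, had 274 and 283 in WT, 99.5 and 141 in ar21 and 74.3 and 96.3 in i4g1. LHY, a morning MYB factor, had 56.1 and 61.6 in WT, 23.1 and 28.6 in ar21 and 21.9 and 20.4 in i4g1. The highest mutant value in each was below the lower WT value, as holds for any gene separated downward. Pooled differences were -2.005 ± 0.38 (SE, adjusted p = 0.00258) in PRR9, -1.47 ± 0.17 (SE, adjusted p = 0.000109) in LNK2 and -1.30 (adjusted p = 0.00189) in LHY. CCA1, the partner of LHY, fell by -1.14 (adjusted p = 0.0371), LNK1 by -1.10, RVE8 by -0.86, PRR7 by -0.61 and PRR5 by -0.51 on the log2 scale. The genes that rose are known to peak later in the day or at night. TOC1 was at 149 and 134 in WT, 218 and 235 in ar21 and 226 and 252 in i4g1, LUX (PCL1) rose by 0.74, and CCR2 (GRP7, AT2G21660), an RNA-binding protein under clock control, was at 1530.0 and 1403 in WT, 2408 and 2192 in ar21 and 2681 and 2576 in i4g1 (log2 difference 0.75 ± 0.10 (SE, adjusted p = 0.00043)). Falls numbered 5 without WT 1, WT 2 or ar21 1, and 3 with DESeq2. The labels give no hour of harvest.

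**Figure D3:**
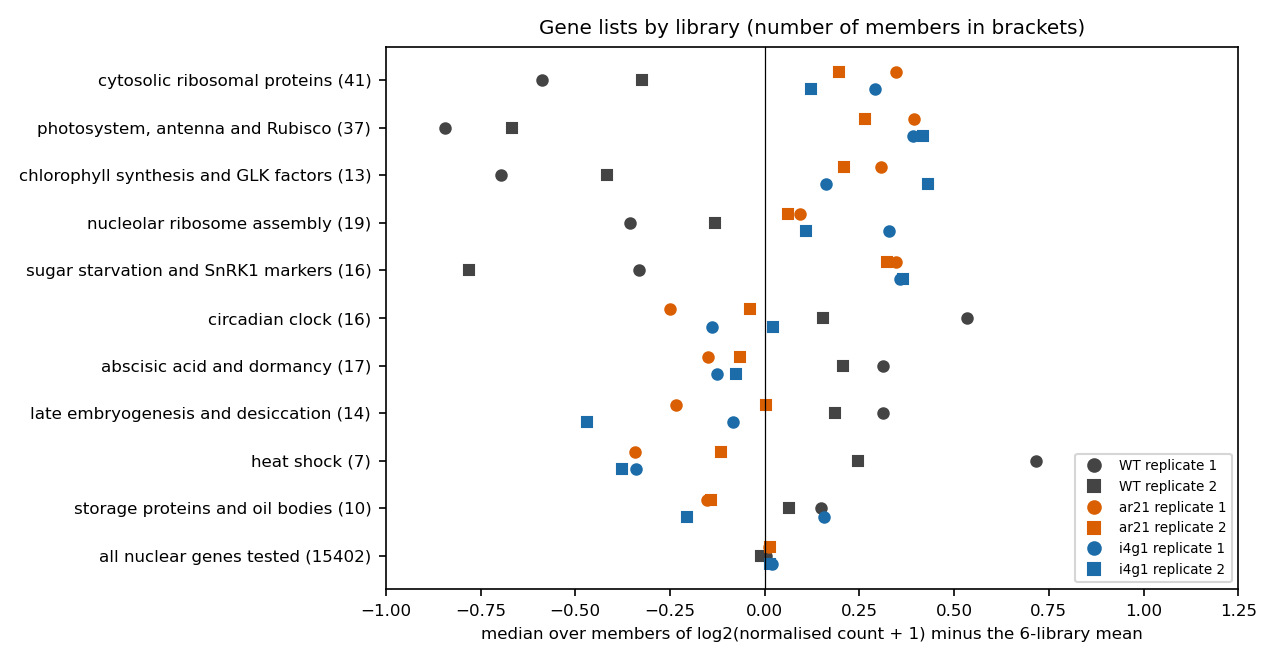
Median over the tested members of 10 gene lists, and over all nuclear rows, of log2(normalised count + 1) minus the gene's mean over the 6 libraries, for each library. Numbers in brackets are members. Both WT libraries (grey) lie to the left of all mutant libraries in the upper 5 lists and to the right in the clock, abscisic acid, late embryogenesis and heat shock lists, while in storage proteins and oil bodies 1 i4g1 library lies beyond WT.

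Markers of seed tissues did not move as 1 block. Of 23 seed coat mucilage markers 7 rose and 1 fell (30.4% and 4.35%, against 13.7% and 10.1% of all nuclear rows). Their summed level was 8109 and 8675 in WT, 13470 and 13120 in ar21, and 12760 and 12420 in i4g1. The median log2 difference over the 23 was 0.20, and the sum is weighted toward the most abundant member, SBT1.7, at 3441 and 3377 in WT, 6415 and 6060.0 in ar21 and 6184 and 5603 in i4g1. Of 11 tested flavonoid markers of the seed coat 4 fell (36.4%) and none rose by any tool or at an unadjusted p under 0.05, with summed levels of 7394 and 7320 in WT against 5511 to 6169 in the mutants. FLS1 (AT5G08640, chr5:2803833-2805606, + strand), which makes flavonols, led them with 673 and 714 in WT, 215 and 255 in ar21 and 182 and 191 in i4g1 (log2 difference -1.73 ± 0.11 (SE, adjusted p = 4.27e-06)), and the highest mutant library stood far below both WT libraries. TT5 (AT3G55120), an earlier step, gave -1.07 ± 0.21 (SE, adjusted p = 0.00299). Without WT 2 or ar21 1 the flavonoid falls numbered 2. Of 9 endosperm markers 5 were under a mean of 10. Of the 4 tested 2 rose (50%), ALE1 and ZOU (adjusted p = 0.0305 and 0.0326), both calls lost without WT 1 and with edgeR.

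Markers of silique wall and shoot checked whether other tissue entered the seed samples. Of 12, 7 were under a mean of 10, and IND and GL1 were at 0 in all 6 libraries. Others were present throughout. TGG1, the most abundant, was at 1164 and 949 in WT, 703 and 700.5 in ar21 and 863.5 and 996 in i4g1. SHP2 was at 135 and 126 in WT, 155 and 152 in ar21 and 150 and 147 in i4g1. SHP1 ranged from 53.2 to 100.5 over the 6 libraries. The part of other tissue in these values was not tested. Of the 5 tested 1 rose and 1 fell (20% each), neither separated, with summed levels of 1432 and 1165 in WT, 963 and 944 in ar21, and 1263 and 1780.0 in i4g1. CA1, a leaf carbonic anhydrase, was at 32.9 and 22.4 in WT, 24.1 and 16.8 in ar21 and 115 and 415 in i4g1, and the defence gene PR1 at 98.7 and 53.2 in WT, 38.2 and 22.0 in ar21 and 308 and 1218 in i4g1. In both genes the ar21 libraries lay within or below the WT range, and both i4g1 libraries lay above it, i4g1 2 farther. Defence markers BGL2 and PR5 passed the pooled test without separation, and the list of 4 tested genes held 0 rises without WT 2 or ar21 1, without the intensity trend, with the mutants as 1 group, with edgeR and with DESeq2. The part of leaf or defence transcripts in the i4g1 results was not tested.

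How far the 2 lines differed from each other was tested in the same fit, without WT. Over all nuclear rows 40 (0.26%) passed, 14 higher in ar21 and 26 higher in i4g1, and 1289 had an unadjusted p under 0.05. Within the genes separated and called, 14 of 3577 differed between the lines. The median log2 difference from WT was 0.68 in ar21 and 0.76 in i4g1 over the rising genes, and -0.63 and -0.73 over the falling genes. i4g1 lay farther from WT than ar21 in 63.7% of the rising and 68.7% of the falling genes, and over all nuclear rows it lay above ar21 in 50.5%. In place of 14 calls there were 0 without ar21 1, 1 without ar21 2, 2 without i4g1 2, 0 with edgeR and 4 with DESeq2.

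The 9 genes named for a called difference between the lines had different layouts against WT. AT3G21380, eIFiso4G1, AT4G16680 and AT1G14930 fell in both lines against WT and were lower still in i4g1. In AT3G21380 the difference from WT was -2.60 in ar21 and -4.88 in i4g1, and ar21 exceeded i4g1 by 2.27 ± 0.30 (SE, adjusted p = 0.0108). Others moved mainly in i4g1. RBCS3B (AT5G38410), a Rubisco small-subunit gene with a nearly identical neighbour, was at 37.8 and 33.6 in WT, 54.3 and 42.5 in ar21 and 134 and 267 in i4g1, and COR47 (AT1G20440), a cold-induced dehydrin, at 107 and 95.2 in WT, 129 and 119 in ar21 and 213 and 314 in i4g1. Both ar21 libraries were just above WT and both i4g1 libraries far above it. The line difference, ar21 minus i4g1, was -1.96 ± 0.28 (SE, adjusted p = 0.0166) in RBCS3B and -1.06 ± 0.18 (SE, adjusted p = 0.0395) in COR47. FLA15, a cell wall arabinogalactan protein, NIT1, a nitrilase with a nearly identical neighbour, and AT5G38195, of the lipid-transfer family, showed the same layout, with AT5G38195 falling.

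Beyond function, the separated and called genes differed from the rest in length and level. The median transcript length was 1529 bases in rising genes, 2212 in falling genes and 1791 over all nuclear genes tested, and the median number of exons was 4, 6 and 5. The median GC content was 41.8%, 41.4% and 41.4%. In the shortest quartile of transcripts (85 to 1305 bases) 20.1% were separated and risen and 6.29% separated and fallen, while in the longest (2404 to 16593 bases) 6.85% and 17.1% were. In the highest quartile of level 25.2% rose and 14.2% fell, and in the lowest 6.42% and 4.16%. Genes were spread over the 5 chromosomes much as all tested genes were, for instance 22% of rising, 19.4% of falling and 20% of all on chromosome 3.

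The length pattern was small per gene and differed between libraries. In the shortest quartile the median deviation from the 6-library mean was -0.07 and -0.10 log2 units in WT, 0.10 and 0.01 in ar21, and 0.12 and 0.00 in i4g1. In the longest quartile it was 0.08 and 0.08 in WT, -0.06 and 0.01 in ar21, and -0.10 and 0.01 in i4g1. Both WT libraries thus shared 1 slope, replicate 1 of each mutant line had the opposite slope, and replicate 2 of each was nearly flat. Replicate 2 of each mutant line was also the one with the lower 18S rRNA share of its line (19.8% against 30.0% in ar21, 3.90% against 11.5% in i4g1), and the part of that share in the length pattern was not tested.

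**Figure D4:**
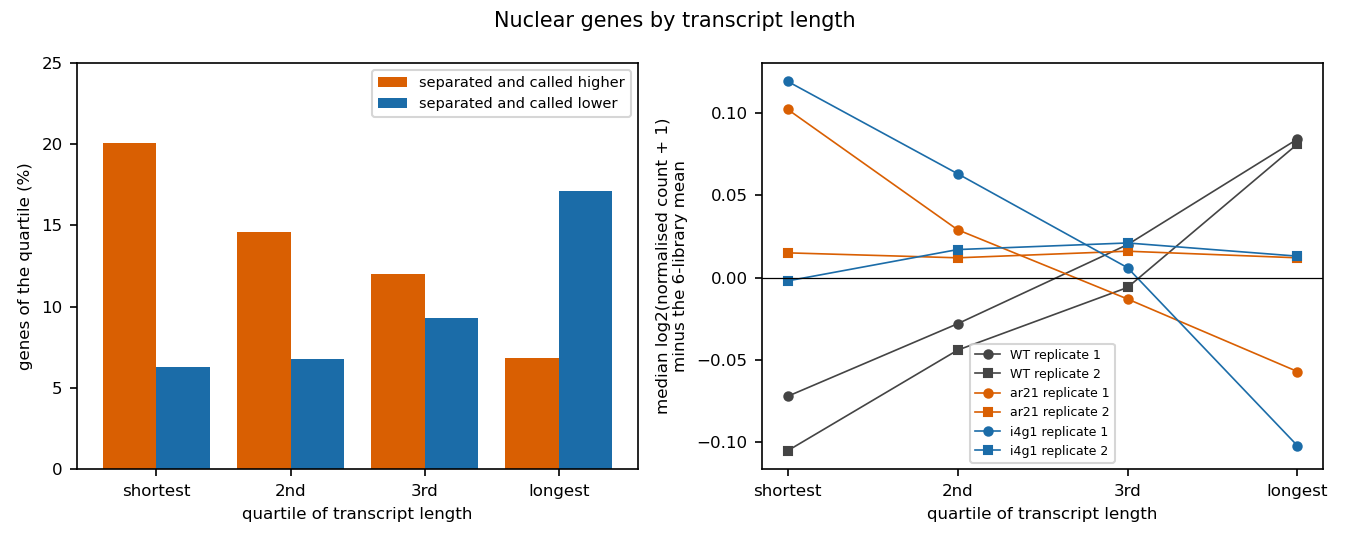
Left, percent of the nuclear genes in each quartile of transcript length that were separated and called higher or lower. Right, median over the quartile of log2(normalised count + 1) minus the 6-library mean, by library. Rising genes go from 20.1% in the shortest to 6.85% in the longest quartile, falling genes from 6.29% to 17.1%, and the lines of ar21 replicate 2 and i4g1 replicate 2 stay near 0.

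Promoters were compared because groups such as the listed ribosomal protein genes moved together. A window from 250 bases before to 50 bases after the annotated gene start was searched on both strands for 8 short motifs, none of which contains another. The telo-box AAACCCTA, typical of genes for the translation machinery in plants, was in 5.87% of the windows of all nuclear genes, 10% of rising and 3.63% of falling genes, and in 46.3% of the 41 listed ribosomal protein genes. The site II core TGGGCC was in 20.9%, 22% and 16.6%, and in 68.3% of the listed ribosomal protein genes. The I-box GATAAG, common in light-regulated genes, was in 14.7%, 19.1% and 11.9%, in 45.9% of photosystem genes and in 50% of starvation markers. The G-box CACGTG, bound by bZIP and bHLH factors, was in 9.61%, 9.1% and 15.1%, in 62.5% of clock genes, in 37.8% of photosystem genes and in 35.3% of abscisic acid genes. The RY core CATGCA of seed genes was in 8.2%, 8.85% and 12.1%. For the evening element AAAATATCT (3.08%, 3.84% and 3.63%), the dehydration-responsive element GCCGAC (3.82%, 3.79% and 4.15%) and the W-box core TTGACC (14%, 12.9% and 14%) the 3 shares lay close together, although the evening element was in 37.5% of the 16 clock genes. These are shares of letters in windows and do not show that a factor binds.

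**Figure D5:**
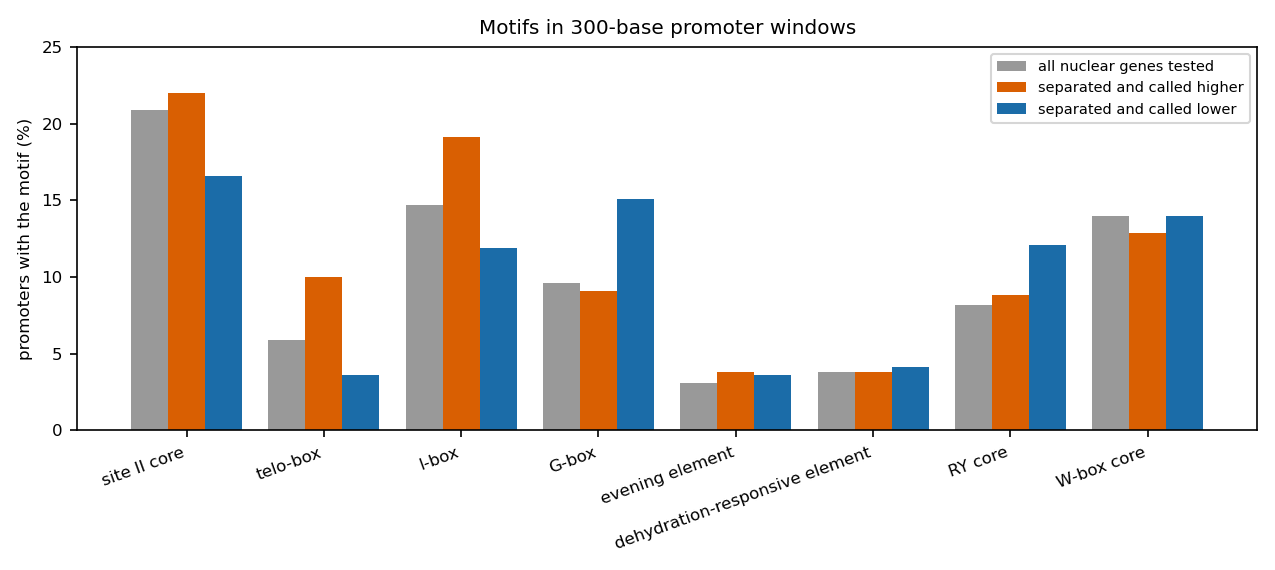
Percent of 300-base promoter windows that hold each motif on either strand, over all nuclear genes tested, genes separated and called higher, and genes separated and called lower. The telo-box and the I-box are more frequent in the rising than in the falling genes (10% and 3.63%, 19.1% and 11.9%), and the G-box and the RY core are less frequent (9.1% and 15.1%, 8.85% and 12.1%).

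Windows of 6 genes described above are printed 5′ to 3′ in the sense of the gene, from the TAIR10.1 assembly, with matches to the 8 motifs in capitals. RPS2C (chr2:17461490-17461789, - strand) and RPS6A (chr4:15347755-15348054, - strand) show the site II core of rising ribosomal protein genes, in RPS2C with a telo-box just after the start. ASN1 (chr3:17441382-17441681, - strand) shows the I-box of a starvation marker together with a pair of G-boxes and a telo-box. PRR9 (chr2:19232357-19232656, + strand) carries a pair of G-boxes and an evening element among the falling clock genes, LEA4-5 (chr5:2090381-2090680, - strand) a dehydration-responsive element and a G-box, and GPT2 (chr1:22824164-22824463, + strand) an RY core and an evening element.
RPS2C: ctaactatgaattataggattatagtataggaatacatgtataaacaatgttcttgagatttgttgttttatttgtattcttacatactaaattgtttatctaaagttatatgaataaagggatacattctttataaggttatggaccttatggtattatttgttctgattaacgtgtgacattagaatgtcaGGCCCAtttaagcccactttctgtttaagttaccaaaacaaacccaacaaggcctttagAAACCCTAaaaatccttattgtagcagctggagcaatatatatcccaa
RPS6A: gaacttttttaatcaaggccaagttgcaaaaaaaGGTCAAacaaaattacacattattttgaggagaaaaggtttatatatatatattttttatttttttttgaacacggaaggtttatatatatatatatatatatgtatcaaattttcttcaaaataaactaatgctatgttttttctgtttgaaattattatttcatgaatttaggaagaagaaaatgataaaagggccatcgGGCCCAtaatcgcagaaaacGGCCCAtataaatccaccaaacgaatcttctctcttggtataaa
ASN1: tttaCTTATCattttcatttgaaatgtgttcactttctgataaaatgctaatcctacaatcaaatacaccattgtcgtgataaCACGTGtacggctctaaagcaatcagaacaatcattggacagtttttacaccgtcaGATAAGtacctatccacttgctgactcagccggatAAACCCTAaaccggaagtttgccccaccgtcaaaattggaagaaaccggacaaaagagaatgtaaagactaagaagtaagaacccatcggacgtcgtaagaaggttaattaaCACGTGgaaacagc
PRR9: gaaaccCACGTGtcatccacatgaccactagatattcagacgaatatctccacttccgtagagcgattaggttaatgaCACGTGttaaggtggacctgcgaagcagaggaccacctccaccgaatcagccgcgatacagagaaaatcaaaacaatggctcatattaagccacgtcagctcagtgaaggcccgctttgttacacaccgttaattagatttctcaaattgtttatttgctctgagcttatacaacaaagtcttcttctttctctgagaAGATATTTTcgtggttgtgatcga
LEA4-5: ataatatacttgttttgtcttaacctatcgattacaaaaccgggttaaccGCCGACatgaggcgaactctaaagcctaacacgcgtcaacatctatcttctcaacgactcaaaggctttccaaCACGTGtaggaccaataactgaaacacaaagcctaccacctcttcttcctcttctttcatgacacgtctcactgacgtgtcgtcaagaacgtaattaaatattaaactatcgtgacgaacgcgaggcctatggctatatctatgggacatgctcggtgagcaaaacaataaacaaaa
GPT2: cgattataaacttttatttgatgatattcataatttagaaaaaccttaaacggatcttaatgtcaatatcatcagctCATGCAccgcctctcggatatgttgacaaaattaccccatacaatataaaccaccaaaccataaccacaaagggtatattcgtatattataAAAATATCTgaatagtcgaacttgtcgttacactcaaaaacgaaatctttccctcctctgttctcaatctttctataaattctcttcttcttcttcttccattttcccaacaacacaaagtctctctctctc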

How the data were processed

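RNA was sequenced from developing seeds in 6 libraries. The deposited table holds 1 signal value per library and merged locus, a read count that the authors divided by 1 size factor per library. This follows from the values, which are whole multiples of 1 step per library. Per the submitters' processing notes, STAR 2.4.0j, StringTie 1.0.3, HTSeq 0.6.0, DESeq2 1.12.4 and the build TAIR10 were used. Of 34001 rows, 33055 matched the TAIR10.1 annotation, which gave names, coordinates, lengths and promoters. The highest row stands for a locus with several rows. Rows with a mean of at least 10 (15591) were tested as log2(value + 1) by limma 3.58.1 (R 4.3.3), fitting a mean for each of the 3 groups and an intensity trend at 3 residual degrees of freedom. P-values are two-sided and adjusted by Benjamini-Hochberg over all 15591 rows, with a threshold of 0.05. After the values were seen, 22 nuclear rows with an organelle copy (at least 90% identity over 50% of the transcript) or of rRNA were set aside. Reads could be recovered for 5 libraries (all but ar21 replicate 1) and were tested with edgeR 4.0.16 and DESeq2 1.42.0. Checks on simulated counts recovered known changes. The simulation had a fixed spread and no shift in library composition, so it does not test the fit under the composition differences seen here. The members, the 23 gene lists and the tests were chosen with earlier results of these data known. Named genes are the 12 largest rises and falls at a level of at least 50 in the higher group, the 5 highest-expressed in each direction, eIFiso4G1 and eIFiso4G2, the leading members of each list, and the 5 with the largest called difference between the lines for each sign. Other genes named, and the 6 promoters printed, were picked after their values were seen. Depth limits precision for low counts, and 1 read was worth 0.434 to 2.80 normalised counts.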

Additional observations from a re-analysis of the deposited data

Results flagged for a closer look

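In 9 named genes the effect against WT differed between the lines by the limma test of ar21 against i4g1. The log2 value of ar21 minus i4g1 was 2.27 in AT3G21380, 1.80 in eIFiso4G1, 1.51 in AT4G16680, 1.17 in AT1G14930 and 1.05 in AT5G38195, each lower in i4g1. It was -1.96 in RBCS3B, -1.06 in COR47, -0.76 in FLA15 and -0.65 in NIT1, each higher in i4g1. Adjusted p-values lay between 0.0108 and 0.0428. In each gene both libraries of 1 line lay on the same side of both libraries of the other, as the choice by this test makes likely. That layout was also seen in 973 of the 2058 genes separated and risen and 689 of the 1519 separated and fallen. Its share over all nuclear rows was not counted, so these counts are no result about the genes.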

How the results depend on the processing

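No named gene changed direction in any of the 17 alternatives. Named genes were chosen as separated and called, so leaving out 1 library or changing the pseudocount could not reverse them. The lack of reversals is therefore no measure of robustness. Of 79 named genes, 52 passed in every alternative run and 19 were lost in at least 1 fit without 1 library. Over the fits without 1 library each, nuclear rows that rose ranged from 1280 to 1984 (2117 with all) and rows that fell from 864 to 1400 (1552), and those also separated from 1276 to 1982 (2058) and from 859 to 1377 (1519). Separated genes ranged from 3893 to 5418 (3525) with higher and from 3562 to 4841 (3196) with lower mutant values, which is larger because fewer libraries must lie apart. Without the intensity trend the rows that rose and fell were 1244 and 961, and 1242 and 954 of them separated. On 5 libraries edgeR gave 1187 and 984 (1173 and 956 separated), and DESeq2 gave 630 and 386 (630 and 384). List members that fell were 30 without the trend and 25 with DESeq2, and those that rose 92 with DESeq2, against 55 and 150. Calls between ar21 and i4g1 within the separated genes, 14 in all, ranged from 0 to 32 without 1 library and were 0 without the filter on low values, 0 without the trend, 0 with edgeR and 4 with DESeq2. Setting all libraries to the same nuclear total gave 1748 rows that rose and 1764 that fell, so which direction held more rows depended on the scaling. The cause of these shifts was not tested. With the replicate number as a block the line calls were 24 and the rows that rose and fell 2195 and 1630. Deviations of same-numbered libraries correlated at -0.065, 0.001 and 0.078. By transcript length, however, replicate 1 of both mutant lines had the same slope, as given above. The labels name no batch, and whether same-numbered libraries shared a preparation was not tested. Depth limits low genes: in the lowest quartile of level 6.42% were separated and rose and 4.16% fell, against 25.2% and 14.2% in the highest.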
